A study of Mus musculus with 14 samples.

Results

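Peaks of histone H3 lysine 27 acetylation (H3K27ac) that the peak caller had split into several summits were examined in macrophages of mouse brain tumours. A summit is the single base at which a peak is highest, and letters after a peak's name mark several summits of 1 peak. In each of the 7 H3K27ac lists, peaks with 3 or more summits were spanned from the first to the last summit, and overlapping spans were merged over the lists. The 6460 merged spans found in at least 2 lists are called split regions here. They were 6460 of 10876 merged spans, the other 4416 having been found in 1 list, and 6460 of 548801 acetylated places in all once every other summit was extended by 250 bp and merged. The regions were chosen by the number of summits per peak in these same lists, so their summit counts are given as a description, without a test.

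The cells were CD11b+ tumour-associated macrophages, sorted by flow cytometry from T387 human glioblastoma grafts in the brains of NSG mice, a strain that has myeloid cells and lacks mature T, B and NK cells. One group received pracinostat, an inhibitor of histone deacetylases, orally at 30 mg/kg (4 doses weekly over 3 weeks, starting 7 days after the graft), and the other received the solvent mixture with DMSO and no drug. The preparation text of the labels gives 3 mg/kg, which differs from the dose stated elsewhere. Each treatment was profiled by CUT&Tag, in which an antibody directs a transposase to cut and tag the DNA next to a mark, with H3K27ac antibody (4 pracinostat and 3 DMSO libraries) and with normal rabbit IgG (4 and 3 libraries). The genotype of all animals was the same NSG background; their age is not stated in the labels. The samples are named biological replicates, and no label ties a library to an animal; a p-value here reflects the variation among these libraries only.

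H3K27ac is laid down by acetyltransferases such as p300 and CBP at active promoters and enhancers and removed by histone deacetylases. It lies on nucleosomes on both sides of the nucleosome-poor DNA that transcription factors occupy, so the signal over an active gene start usually has more than one maximum. In macrophages, long acetylated stretches are known at genes of the lineage, such as Spi1, which encodes the factor PU.1.

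The second DMSO library stood apart from the others. It had 53503 summits, against 229609 to 289017 in the 4 pracinostat libraries and 208401 and 291042 in the other DMSO libraries, and 65.3% of its summits had its lowest score of 1.43. Only 1 of its 53459 peaks had 3 or more summits and 42 had 2, so it took almost no part in the choice of regions. Summits in the split regions were nevertheless called there, as separate peaks: 5633 of the 6460 regions held at least 1 summit and 1047 held 3 or more, counted with 250 bp on either side. The main differences are given with and without this library. The labels set the same target number of reads for every library, and no source used here states the number obtained, so the length of a list is the measure of depth at hand.

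Among the split regions were 37 of the 1005 annotated microRNA hairpins. The mature sequences of 3 are shown. They are for a region split in 6 libraries, a region near the one with the most summits, and a microRNA of blood cells. These 3 were chosen after their values were seen. The sequences are from RefSeq (GRCm38.p6, the assembly that mm10 names), with the seed, bases 2 to 8 from the 5′ end, in capitals.
mmu-miR-191-5p (chr9:108568325-108568347, plus strand): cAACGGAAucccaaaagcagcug
mmu-miR-191-3p (chr9:108568367-108568388, plus strand): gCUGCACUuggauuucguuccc
mmu-miR-339-5p (chr5:139369708-139369730, minus strand): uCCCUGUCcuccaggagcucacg
mmu-miR-339-3p (chr5:139369673-139369695, minus strand): uGAGCGCCucggcgacagagccg
mmu-miR-142a-5p (chr11:87756867-87756887, plus strand): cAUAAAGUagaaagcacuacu
mmu-miR-142a-3p (chr11:87756903-87756925, plus strand): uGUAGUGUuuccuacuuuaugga
No seed was shared among these 6 arms. The region over Mir191, at the starts of Ndufaf3 and Dalrd3, held 7, 11, 6 and 7 summits in pracinostat libraries and 8, 5 and 7 in DMSO libraries. The region over Mir339 held 13, 12, 10 and 11 summits in pracinostat libraries and 10, 4 and 9 in DMSO libraries. Mir142, whose microRNA is abundant in blood cells, lay in a smaller region of 1024 bp that was split in 2 libraries only and held 3, 4, 1 and 1 summits in pracinostat libraries, against 2, 0 and 2 in DMSO libraries. In all 3 regions the DMSO library with the fewest summits was the second, and among the other libraries the ranges of the treatments overlapped.

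Promoters of 5 genes that the results turn on are shown next. Gpr146, Junb and Sbno2 lie in regions with the most summits, and Lipa and Flcn in regions with the smallest p by treatment. Each run covers 250 bases before to 50 bases after the gene start, 5′ to 3′ along the gene, from RefSeq (GRCm38.p6), and capitals mark matches, on either strand, to any of 5 short motifs: GAGGAAG (the core bound by PU.1), TGANTCA (AP-1), CCGGAAG (ETS factors of many promoters), GGGCGG (the GC box) and TATAAA (the TATA box).
Gpr146 (chr5:139377447-139377746, plus strand): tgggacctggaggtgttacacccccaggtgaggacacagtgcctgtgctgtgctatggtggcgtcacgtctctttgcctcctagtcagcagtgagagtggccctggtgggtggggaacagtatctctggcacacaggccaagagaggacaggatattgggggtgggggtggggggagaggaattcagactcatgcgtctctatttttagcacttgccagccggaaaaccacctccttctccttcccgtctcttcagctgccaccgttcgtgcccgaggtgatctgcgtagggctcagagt
Junb (chr8:84978699-84978998, minus strand): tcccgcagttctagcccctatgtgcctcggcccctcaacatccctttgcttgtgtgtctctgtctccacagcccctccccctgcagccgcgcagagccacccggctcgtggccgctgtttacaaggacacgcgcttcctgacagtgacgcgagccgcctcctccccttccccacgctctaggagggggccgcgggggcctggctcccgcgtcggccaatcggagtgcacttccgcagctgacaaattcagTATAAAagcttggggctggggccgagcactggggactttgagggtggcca
Sbno2 (chr10:80075390-80075689, minus strand): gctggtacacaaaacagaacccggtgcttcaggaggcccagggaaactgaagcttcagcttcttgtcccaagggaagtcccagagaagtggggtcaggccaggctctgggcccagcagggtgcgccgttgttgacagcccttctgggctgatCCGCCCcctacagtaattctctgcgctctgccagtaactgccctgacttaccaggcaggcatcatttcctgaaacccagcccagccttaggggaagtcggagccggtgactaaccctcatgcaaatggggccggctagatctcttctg
Lipa (chr19:34527425-34527724, minus strand): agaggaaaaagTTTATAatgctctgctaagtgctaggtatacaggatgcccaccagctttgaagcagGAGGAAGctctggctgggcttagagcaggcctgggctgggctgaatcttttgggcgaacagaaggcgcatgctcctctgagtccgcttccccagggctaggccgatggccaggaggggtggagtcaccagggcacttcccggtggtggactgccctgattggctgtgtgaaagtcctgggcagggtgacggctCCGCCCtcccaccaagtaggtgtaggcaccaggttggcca
Flcn (chr11:59809990-59810289, minus strand): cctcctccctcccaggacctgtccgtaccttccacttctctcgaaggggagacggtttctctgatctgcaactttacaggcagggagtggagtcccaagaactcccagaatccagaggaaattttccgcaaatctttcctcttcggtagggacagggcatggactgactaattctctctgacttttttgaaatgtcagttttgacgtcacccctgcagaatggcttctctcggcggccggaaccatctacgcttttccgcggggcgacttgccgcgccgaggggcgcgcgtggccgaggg
Junb had 1 TATA match, Sbno2 had 1 GC box, Lipa had 1 match each to the PU.1 core, the GC box and the TATA box, and the windows of Gpr146 and Flcn had no match. A match is a run of letters and does not show that a factor binds there. Sbno2, which encodes a transcriptional co-regulator, had its best-scoring summit at −35, −26, −7 and −44 bases from the start (negative before it) in the 4 pracinostat libraries, against −31, 14 and 3994 bases in DMSO libraries 1 to 3. At Junb, a subunit of the AP-1 factor, the nearest summit lay at 13, 19, −30 and −5 bases with pracinostat, against −29, −125 and 79 bases with DMSO, while the best one lay as far as −6976 bases in DMSO library 3. At Lipa, which encodes lysosomal acid lipase, the best summit lay at −43, −41, −27 and −45 bases with pracinostat, against −50, −86 and 114 bases with DMSO. The nearest summit thus fell inside the printed window in 6 of 7 libraries at Lipa.

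Peaks with 3 or more summits were found with H3K27ac antibody and not with IgG. Their share of all peaks was 2.58, 2.97, 1.78 and 1.79% in pracinostat H3K27ac libraries 1 to 4 and 2.30, 0.00187 and 1.38% in DMSO H3K27ac libraries 1 to 3, against 0% in all 7 IgG libraries. Counts of 0 among 2194 to 18517 IgG peaks allow shares of up to 0.137% to 0.0162%, a limit that covers counting error only. The H3K27ac libraries averaged 1.83 ± 0.970% (SD, n = 7) and the IgG libraries 0% (n = 7). No IgG peak had even 2 summits, and no test is given because the regions were chosen on this value in the H3K27ac lists. With the 2000 highest-scoring peaks of each library, which gives lists of equal length, 54.25, 48.15, 52.15 and 43.95% of pracinostat and 47.45, 0.05 and 52.90% of DMSO H3K27ac peaks were split, against 0% of IgG peaks. Thus the 6 libraries other than the second DMSO one had a similar share among their strongest peaks. No source used here states whether the IgG lists were made with the same splitting option.

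**Figure D1:**
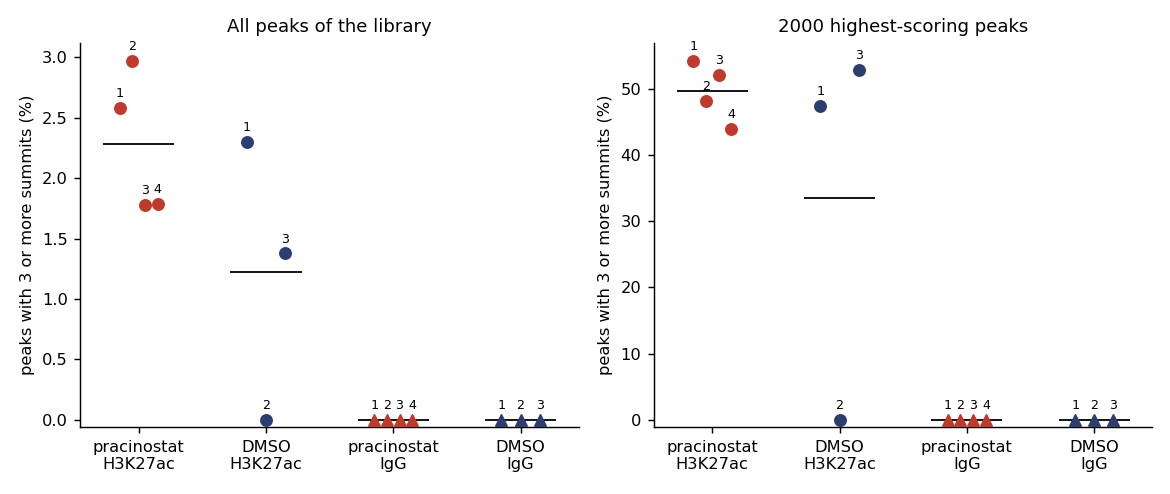
Share of peaks with 3 or more summits (%) in each of 14 libraries, over all peaks (left) and over the 2000 highest-scoring peaks (right); points are libraries with their replicate number and lines are group means. All 7 IgG libraries sit at 0%, and the second DMSO H3K27ac library sits at 0.00187% (left) and 0.05% (right).

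Neither the share of split peaks nor the spacing of their summits differed between treatments past the threshold. The share of peaks with 3 or more summits averaged 2.28 ± 0.595% with pracinostat (SD, n = 4) and 1.23 ± 1.16% with DMSO (n = 3), a difference of 1.06 percentage points (two-sided exact permutation test over 35 splits, p = 0.200, adjusted 0.200 over 3 library values), which fell to 0.443 without the second DMSO library. Split peaks held 3.88 ± 0.122 summits on average with pracinostat and 3.57 ± 0.491 with DMSO (SD over libraries, given as a description), and the difference of 0.316 was 0.0325 without the second DMSO library. The adjustment was over the share, the mean number of summits per split peak and the spacing given next. These 3 values rest on all peaks or all split peaks of a library, and the rule treated the lists of both treatments alike. The smallest p that 35 splits allow is 0.0286. In the pracinostat libraries 4.08 to 7.20% of peaks were split into at least 2 summits, against 5.39, 0.0804 and 3.28% in DMSO libraries 1 to 3.

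Neighbouring summits inside a split peak lay at similar distances in both treatments, apart from the second DMSO library. The median distance between neighbouring summits was 293, 294, 299 and 294 bp in pracinostat libraries and 281, 241.5 and 293 bp in DMSO libraries; the value of the second DMSO library rests on 2 distances. The commonest distances lay between 200 and 250 bp in each of the other 6 libraries, and 68.3 to 71.3% of distances were between 150 and 400 bp. Distances under 150 bp made up 2.64 to 4.50% in pracinostat libraries, against 5.19 and 2.77% in DMSO libraries 1 and 3. The mean of the medians was 295 ± 2.71 bp with pracinostat (SD, n = 4) and 272 ± 26.9 bp with DMSO (n = 3), a difference of 23.2 bp (two-sided exact permutation test, p = 0.0571, adjusted 0.171), and 8 bp without the second DMSO library. The smallest distance that the caller allowed between summits is not stated, and its part in the spacing was not tested. Within peaks of exactly 3 summits, the middle one was the highest in 35.4 to 39.5% of peaks with pracinostat, against 35.8 and 38.6% in DMSO libraries 1 and 3.

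**Figure D2:**
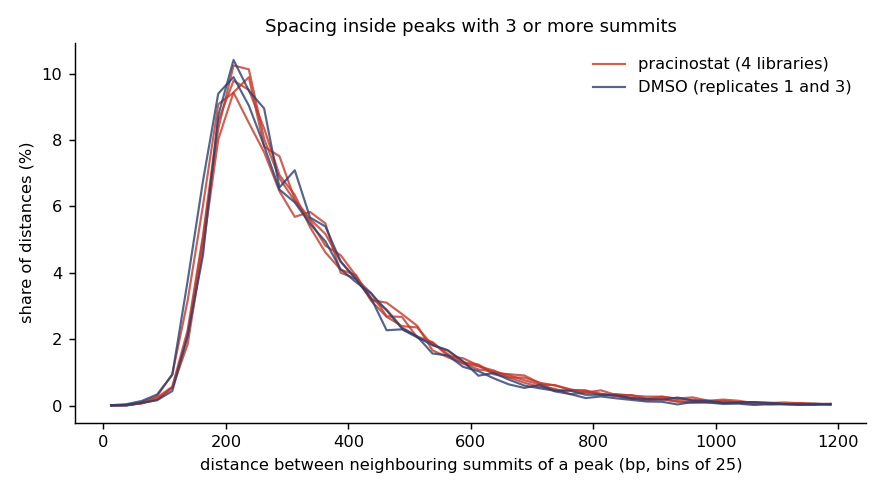
Distance between neighbouring summits of 1 peak (bp, bins of 25 bp) as a share of all distances in that library (%), for peaks with 3 or more summits; each line is a library, and the second DMSO library, with 2 distances, is not drawn. The lines overlap and all 6 are highest between 200 and 250 bp.

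The split regions were short compared with a gene and varied widely. Their width had a median of 1274 bp and ran from 350 to 13187 bp, and in all they covered 9989415 bp. Counted with 250 bp on either side, a region held a median of 4, 4, 3 and 3 summits in pracinostat libraries 1 to 4 and 3, 1 and 3 in DMSO libraries 1 to 3. These regions held 8.52 to 11.9% of all summits of a pracinostat library and 12.0, 19.4 and 8.09% of those of DMSO libraries 1 to 3. The regions were split in 3400 to 4426 cases per pracinostat library, against 3670, 1 and 3216 in the DMSO libraries. In all, 2158 regions were split in exactly 2 libraries, 1393 in 3, 1122 in 4, 878 in 5, 908 in 6 and 1 in all 7. Regions just inside the rule, split in exactly 2 libraries, had a median width of 958.5 bp and 2.29 summits per library, and spans just outside it, split in 1 library, had 641 bp and 1.71 summits. With the number of libraries, the median width grew to 2310.5 bp and the mean number of summits to 5.57 among the 908 regions split in 6.

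The region split in all 7 libraries lay between genes on chr1:85750437-85752649, 13781 bp from A630001G21Rik, and holds the hairpin of Mir8096. It had 7, 4, 4 and 7 summits with pracinostat and 5, 5 and 7 with DMSO. IgG summits were found in few regions. Of the 6460 regions 467 (7.23%) held an IgG summit of any of the 7 IgG libraries, 44 to 87 regions per pracinostat IgG library and 73 to 106 per DMSO IgG library. The region with the most IgG summits, 4, was chr17:39843187-39846695, nearest to Esp38 and overlapping Rn18s-rs5, a pseudogene in the gene table.

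Split peaks lay at gene ends more often than peaks with 1 summit. In each library the highest summit of every peak was taken and counted when it lay within 1 kb of either end of a protein-coding gene. The share was 36.6, 42.6, 39.2 and 43.7% for split peaks of pracinostat libraries, against 9.40, 10.3, 9.30 and 8.62% for their peaks with 1 summit. In DMSO libraries 1 and 3 it was 46.4 and 42.4% for split peaks, against 9.96 and 8.52%. All 6 of these libraries had it higher for split peaks, while the single split peak of the second DMSO library did not lie at a gene end. Peaks of 2 summits stood between, at 35.1 ± 2.51% over the 6 libraries (SD), where split peaks had 41.8 ± 3.44% and peaks of 1 summit 9.34 ± 0.698%. The difference over 7 libraries was 24.9 percentage points, higher in 6 of 7 (two-sided exact sign-flip permutation over all patterns, p = 0.0313, adjusted over 2 comparisons 0.0625). Without the second DMSO library it was 32.5 points in 6 of 6 (p = 0.0313, exact, the smallest that 6 libraries allow). Split peaks also had higher scores: compared within 10 bins of the best score, the difference was 6.74 points in these 6 libraries (exact p = 0.0313). Best summits of split peaks lay within 250 bp of an IgG summit in 2.52 ± 0.251% of cases, and those of peaks with 1 summit in 1.52 ± 0.0694%, over the same 6 libraries. Over 7 libraries that difference was 0.611 points (exact sign-flip permutation p = 0.203, adjusted 0.203), and 1.01 without the second DMSO library (exact p = 0.0313).

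By position, 2478 of the 6460 split regions (38.4%) held a gene start, 2947 (45.6%) lay in a gene without holding its start, and 1035 (16.02%) lay between genes, at a median of 11123 bp from the nearest one. Starts were taken from RefSeq promoters of 17492 genes, beside 21887 protein-coding genes in the gene table. Regions over other starts were counted as lying in a gene or between genes, so the share at gene starts may be too low. Those of chromosome 18 were not used here, which places all its 160 regions in these 2 classes. The classes differed little in width, with medians of 1277.5 bp at gene starts, 1309 bp in genes and 1192 bp between genes. The share at gene starts was 30.2% among regions split in exactly 2 libraries, 44.0% among those split in 4 and 46.1% among those split in 6, beside 21.7% of spans split in 1 library.

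Around a gene start the summits were unevenly spread. In the 1845 split regions with the start of 1 gene, summits were counted in bins of 100 bp along the direction of transcription. The fullest bin was the last 100 bp before the start in each of the 7 libraries, with 34.6, 43.1, 27.2 and 39.6 summits per 100 regions in pracinostat libraries and 39.0, 18.6 and 27.9 in DMSO libraries. The bin from 200 to 300 bp after the start held fewer summits than both of its neighbours in all 7 libraries. It held 16.9, 17.7, 17.8 and 16.04 summits per 100 regions in pracinostat libraries, against 19.4, 7.75 and 16.3 in DMSO libraries. From 300 to 400 bp there were 20.4, 22.5, 17.9 and 20.7 with pracinostat, against 22.3, 8.35 and 20.2 with DMSO. Of all summits in these 1845 regions, 57.0 to 59.6% lay after the start with pracinostat, against 57.6 to 59.6% with DMSO. The treatments overlapped in the fullest bin and in the bins from 200 to 400 bp.

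**Figure D3:**
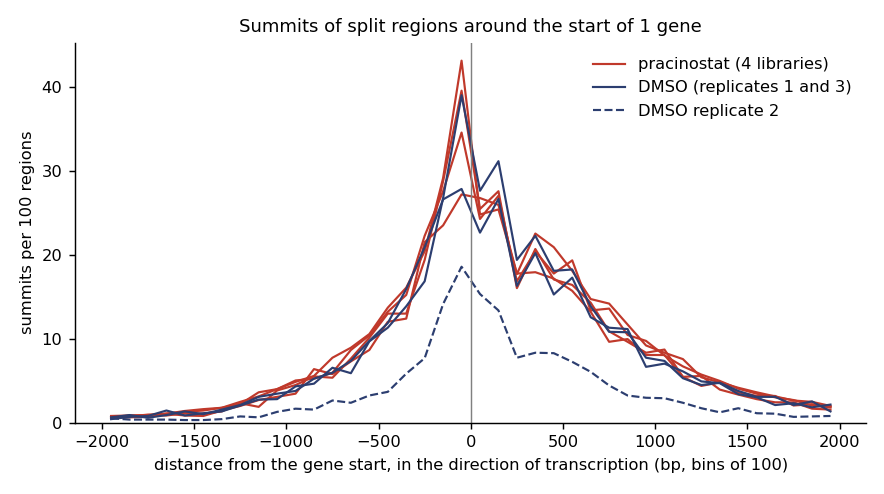
Summits per 100 split regions in bins of 100 bp by distance from the gene start (bp, negative before the start), over 1845 regions with the start of 1 gene; each line is a library. All 7 lines are highest in the last 100 bp before the start and dip between 200 and 300 bp after it.

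The starts inside split regions were rich in CG dinucleotides. The 300-base windows of 3312 starts in split regions held a median of 22 CG dinucleotides, against 10 in the windows of 17951 other starts, and their median GC content was 61.7%, against 55.0%. The GC box was found in 67.6% of the windows in split regions, against 46.2% of all 21263 windows. CCGGAAG was found in 24.6% of them, against 11.6% of all. GAGGAAG was found in 14.6% of windows in split regions, against 13.6% of all, TGANTCA in 4.80%, against 6.99%, and TATAAA in 5.16%, against 12.6%. These shares are descriptions. The windows share their base composition, and its part in the shares of single motifs was not tested.

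Genes of macrophage identity and function often held a split region, and so did housekeeping genes (9 of 15, 60%). Over all protein-coding genes, 4786 of 21887 (21.9%) had a split region in the gene or within 1 kb of it, and 3920 (17.9%) had one within 1 kb of an end; these shares are the background for every list that follows. Of 20 transcription factors of the macrophage lineage 17 had one, among them Spi1 with 3 and Irf8, an interferon regulatory factor needed for monocytes and microglia, with 2. The exceptions were Maf, Mef2c and Tfec. Of 18 AP-1 and stress response factors 14 had one, all within 1 kb of a gene end, with Fosb, Fosl1, Egr2 and Ier5 as the exceptions. Of 20 microglia genes 14 had one, including Trem2, a lipid receptor of microglia, Olfml3, a secreted glycoprotein, and Cx3cr1, the fractalkine receptor, while P2ry12, P2ry13, Gpr34, Siglech, Fcrls and Sall3 had none. Of 15 genes of monocyte-derived macrophages 3 had one (Itga4, Tgfbi and Emilin2), 20%, close to the share of all genes.

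The sort was made on CD11b, whose gene Itgam had no split region in it or within 1 kb of it. Summits at Itgam outside the split regions were not counted here. The other 5 of the 6 genes used to check the sorted lineage, Spi1 among them, had a split region. Regions of Csf1r, the receptor for the growth factor CSF1, held 22, 23, 19 and 27 summits in pracinostat libraries and 25, 11 and 22 in DMSO libraries. Those of Cx3cr1 held 10, 16, 14 and 13 summits with pracinostat and 13, 6 and 10 with DMSO. Those of Cd68, a lysosomal glycoprotein of macrophages, held 10, 9, 7 and 8 with pracinostat and 9, 5 and 9 with DMSO, and those of Aif1, which encodes IBA1, held 6, 8, 9 and 5 with pracinostat and 9, 2 and 6 with DMSO.

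Of 26 lysosomal genes 21 had a split region (80.8%), among them Ctsd and Ctsz, which encode the proteases cathepsin D and cathepsin Z, with Lamp1, Lamp2, Ctsl, Gla and Atp6v0d2 as the exceptions. Of 30 genes of phagocytosis and engulfment 18 had one. They include Elmo2, part of the complex that activates Rac at the phagocytic cup, with 4 regions, and Sirpa, the receptor for the signal CD47, with 5. Vav3, Dock1, Arpc5, Myo1e, Fcgr2b, Fcgr3, Gas6, Itgam, Cd36, Msr1, Marco and Mfge8 had none. Of 22 inflammatory and NF-kB genes 14 had one, including the NF-kB subunit genes Nfkb1, Nfkb2, Rela and Relb and the inhibitor gene Nfkbie. Il1b, Il1a, Il6, Ccl2, Cxcl2, Ptgs2, Nfkbia and Nfkbiz had none. Of the 19 interferon response genes examined 11 had one, including Stat2, Irf7 and Irf9 but not Isg15 or Ifit1 to Ifit3. Among genes of the enzymes that add, remove and read acetylation 14 of 26 had one, including Hdac3, Hdac4, Hdac5, Hdac10, Brd2, Brd3 and the corepressor gene Ncor1, while Hdac1, Hdac2, Ep300 and Crebbp had none. Housekeeping genes had 9 of 15 (60%) and histone genes 5 of 13. The housekeeping share equalled that of the engulfment list (60%) and was above those of the interferon (57.9%) and acetylation (53.8%) lists. A high share was thus not particular to macrophage genes.

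Markers of lymphocytes, neutrophils, neurons and astrocytes had a split region in a smaller share than the 21.9% of all genes, and those of endothelial and mural cells in about that share; the shares were not tested. The 19 lymphocyte genes in the gene table had 0, 1 of 15 neutrophil genes had one (6.67%; Csf3r, which macrophages can also express), and 1 of 18 neuron and astrocyte genes (5.56%; S100b). Among oligodendrocyte genes 2 of 12 had one (16.7%; Mbp and Cnp) and among endothelial and mural genes 3 of 14 (21.4%; Vwf, Pecam1 and Cdh5, none within 1 kb of an end). The summed summits in the split regions of the oligodendrocyte list were 15, 20, 19 and 16 in pracinostat libraries and 16, 4 and 16 in DMSO libraries, and those of the endothelial and mural list 12, 12, 8 and 10 with pracinostat and 9, 4 and 11 with DMSO. The single Csf3r region had 4, 2, 4 and 4 summits with pracinostat and 5, 1 and 4 with DMSO. Olig1, Olig2, Sox10, Mog, Gfap, Rbfox3, Cldn5, S100a8 and Ly6g were among the defining markers with none. Longer genes offer more room for a region: the median length was 44558 bp in the neuron and astrocyte list, 22744.5 bp in the lysosome list, 5857 bp in the AP-1 list, 54110 bp in the deacetylase and acetyltransferase list, 39818 bp in the engulfment list and 17169 bp over all genes. The part of length in the shares was not tested. By gene, Zmiz1, a co-activator, held the most split regions, 19, ahead of Tns3 and Zfp710 with 12 each.

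**Figure D4:**
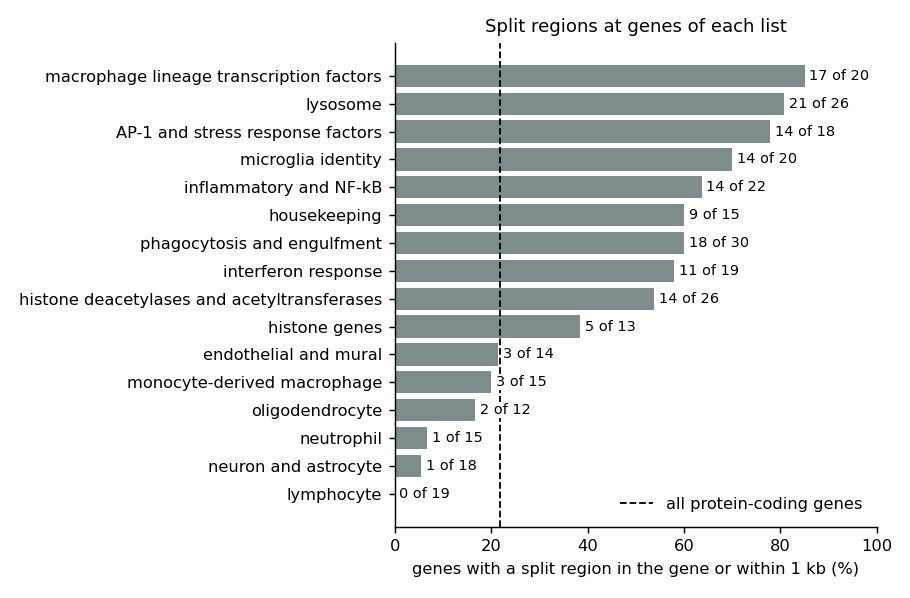
Share of the genes of each list (%) that held a split region in the gene or within 1 kb of it, with counts beside the bars; the dashed line is the share over all protein-coding genes (21.9%). Macrophage factors (17 of 20) are at the top and lymphocyte genes (0 of 19) at the bottom.

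The 10 regions with the most summits held means of 16.4 to 22.4 summits per library. The longest, chr5:139376664-139389850 over 3110082I17Rik and Gpr146, a G protein-coupled receptor gene, held 28, 28, 22 and 22 summits in pracinostat libraries and 25, 11 and 21 in DMSO libraries. The region at Sh3bp2, an adaptor protein of immune signalling (chr5:34525820-34536967), held 26, 23, 21 and 24 with pracinostat and 25, 11 and 19 with DMSO. The Junb region (chr8:84977377-84986547) held 27, 21, 19 and 21 with pracinostat and 26, 10 and 25 with DMSO. All 3 were split in 6 libraries, and leaving the second DMSO library aside the treatments overlapped in each.

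A region between genes, 61795 bp from Cebpb, which encodes a myeloid factor induced by inflammatory signals, held 23, 23, 14 and 19 summits with pracinostat and 20, 10 and 25 with DMSO (chr2:167752227-167763386). Cebpb is its nearest protein-coding gene, which does not show that it acts on it. The region at Spi1 (chr2:91081899-91088601) held 21, 20, 18 and 16 summits with pracinostat and 20, 9 and 19 with DMSO. At Ctsd (chr7:142383279-142391297) there were 21, 22, 20 and 17 summits with pracinostat and 18, 6 and 13 with DMSO. The Ctsd counts of 3 pracinostat libraries lay above those of every DMSO library, and the fourth lay between those of DMSO libraries 1 and 3. The other 4 of the 10 regions with the most summits were at Sbno2, at Shisa5, Trex1 and Atrip, at Syngr1 and at Frmd8, with means of 16.4 to 18 summits per library. Within lists, the regions with the most summits were at Olfml3 and Trem2 for microglia genes, with means of 8.86 and 8.43, at Elmo2 for engulfment genes, with 12.3, at Parp14, an interferon-induced ADP-ribosyltransferase, with 8, and at Actb, which encodes beta-actin, with 7.57.

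Few split regions differed in rank between treatments, and no region was called both with and without the second DMSO library. Each region was given the highest summit score in it, and it was ranked within its library among 123422 places with a summit in at least 3 of 7 libraries, since scores are not comparable between libraries. The highest-scoring place of a library has a percentile of 99.9996, and a change at all places alike would not show. All 6460 regions passed this filter, and their median percentile was 95.8, 95.2, 95.4 and 95.2 in pracinostat libraries and 95.5, 94.8 and 95.4 in DMSO libraries. Percentiles were turned into normal scores and tested with limma, adjusted over all 123422 places. With Benjamini-Hochberg adjustment 1 region rose, beside 0.00081% of all places, and 0 fell, beside 0.00081%. At an unadjusted p under 0.05 limma called 400 regions higher, against 2.55% of all places, and 124 lower, against 3.47%, that is 6.19 and 1.92% of the regions. Without the second DMSO library the counts were 174 higher (2.69%, beside 2.05% of all places) and 175 lower (2.71%, beside 2.45%), and after adjustment 1 rose (beside 0.00166%) and 0 fell (beside 0% of all places). The regions were chosen in 4 pracinostat libraries and in effect 2 DMSO libraries, which can favour regions higher with pracinostat. With all libraries, 153 of the higher and 15 of the lower regions were among 1642 split in pracinostat libraries only. Of the 58 split in DMSO libraries only, 3 were higher and 4 lower. The part of this choice in the counts was not tested. The median difference over the regions was 0.08 normal-score units and over all places −0.02, and without the second DMSO library −0.01 and −0.00347.

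The region that rose lay in Cdk6, a cyclin-dependent kinase gene of the G1 phase, at chr5:3494201-3494910. Its percentiles were 99.8, 99.9, 99.99 and 96.5 in pracinostat libraries and 98.0, 36.9 and 93.1 in DMSO libraries, where 36.9 is the value of a place without a summit. The difference was 1.84 ± 0.310 normal-score units (SE; limma adjusted p = 0.000415), and the call ended without the second DMSO library (1.14 ± 0.320, adjusted p = 0.583) and without the third pracinostat library (adjusted p = 0.239). It also ended with list length as a covariate (1.24, limma adjusted p = 0.397) and with scores of at least 5 (adjusted p = 0.124). Over 14 alternatives the direction held in 14 and the call in 10, with limma adjusted p from 6.2e-06 to 0.583. The number of summits went the other way, with 1, 1, 2 and 2 in pracinostat libraries and 3, 0 and 3 in DMSO libraries, and the peak was split in 2 DMSO libraries only. The fourth pracinostat library lay between DMSO libraries 1 and 3 in percentile, so the groups overlapped.

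Lipa (chr19:34526493-34527524) was called without the second DMSO library. Its region had percentiles of 99.7, 99.98, 99.7 and 99.98 with pracinostat and 97.2, 99.7 and 84.2 with DMSO, and it held 5, 4, 4 and 4 summits with pracinostat and 4, 2 and 3 with DMSO. Over all libraries the difference was 1.26 ± 0.282 normal-score units (limma adjusted p = 0.187), and 1.71 ± 0.318 without the second DMSO library (adjusted p = 0.00870). The pracinostat libraries all lay above DMSO libraries 1 and 3, and the second DMSO library lay among them. Over 15 alternatives the direction held in 15 and the call in 3, with adjusted p from 0.00373 to 0.939.

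At the other regions with the smallest p, 0 passed after adjustment (limma, adjusted p from 0.178 to 0.597). Shcbp1l is the nearest gene, at 9880 bp, of a region among the highest-scoring of every library (chr1:153414372-153415220). The region in Ak1, which encodes an adenylate kinase, stood at percentiles of 98.9, 99.2, 99.4 and 97.8 with pracinostat and 94.5, 81.2 and 55.5 with DMSO, and the one in Parvb, an actin-binding protein of adhesions, at 98.7, 99.2, 95.7 and 98.9 with pracinostat and 96.6, 36.9 and 77.7 with DMSO. At Ak1 every pracinostat library lay above every DMSO library. In the opposite direction, the start of Flcn, which encodes folliculin, a regulator of nutrient signalling at the lysosome, stood at 99.6, 95.01, 99.6 and 97.6 with pracinostat and 99.97, 99.94 and 99.99 with DMSO (−1.26 ± 0.275 normal-score units, limma adjusted p = 0.178). The region in Rptor, which encodes the mTORC1 subunit raptor (chr11:119861954-119864039), stood at 95.8, 91.8, 86.3 and 92.1 with pracinostat and 98.7, 99.96 and 98.9 with DMSO (−1.21 ± 0.323, limma adjusted p = 0.446). At Flcn and Rptor every pracinostat library lay below every DMSO library, and neither passed the adjusted threshold. The remaining regions of this kind, at Hps5 and Gtf2h1, at Armc6 and Sugp2 and in Ppp3ca, had differences of −1.35 ± 0.327, −1.27 ± 0.350 and −0.97 ± 0.287. Without the second DMSO library the differences were 0.597 near Shcbp1l, 1.45 in Ak1 and 0.876 in Parvb, against 1.03, 1.44 and 1.41 with it. Without it they were −1.40 at Flcn, −0.855 in Rptor, −0.866 at Hps5 and Gtf2h1, −1.11 at Armc6 and Sugp2 and −1.40 in Ppp3ca. Again 0 passed after adjustment (limma, adjusted p from 0.132 to 0.844).

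**Figure D5:**
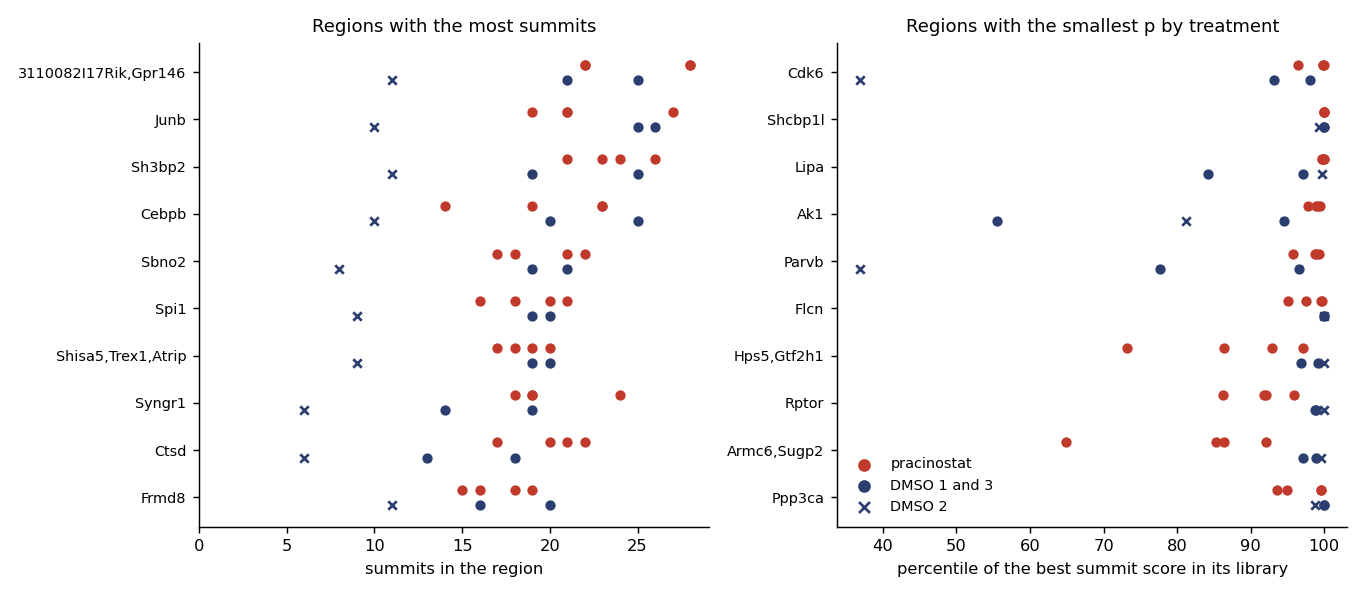
Left, summits in each of the 10 regions with the most summits, and right, percentile of the best summit score within the library for the 10 regions with the smallest p by treatment; points are libraries, with the second DMSO library as a cross. In the left panel that library has 6 to 11 summits and the others 13 to 28.

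No split region at a gene of the lists passed after adjustment over all places in limma. Of the 46 regions at lysosomal genes, 3 were higher and 0 lower at an unadjusted p under 0.05, with a median difference of 0.10 normal-score units. Of the 36 at macrophage factors, 3 were higher and 0 lower, with a median of 0.06. Of the 51 at engulfment genes, 3 were higher and 0 lower, and of the 34 at microglia genes, 2 were higher and 1 lower. Of the 11 at interferon response genes, 3 were higher and 0 lower, with a median of −0.10, and −0.32 without the second DMSO library. Of the 19 at AP-1 and stress response factors, 1 was higher and 2 lower. Beside these counts, 6.19% of all split regions and 2.55% of all places were higher, and 1.92 and 3.47% lower. The share higher at interferon genes was above both, from few regions and with a median in the opposite direction. The counts are descriptions, and differences between lists were not tested. The median over all split regions was 0.08, and without the second DMSO library the median of the macrophage factors was −0.03 and that of the engulfment genes −0.05, so that the direction of both turned. That of the lysosomal genes was 0.00421 without it, where Lipa was the 1 region called.

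More regions were split with pracinostat and not with DMSO than the reverse, in a design with 4 pracinostat libraries and in effect 2 DMSO libraries, which favours that direction. In 1642 regions the peak was split in 2 or more pracinostat libraries and in no DMSO library, and in 96 of these it was split in all 4. In 58 regions it was split in 2 DMSO libraries and in no pracinostat library. These places were not without acetylation under the other treatment. The 96 regions held 4.73, 4.82, 4.49 and 4.44 summits on average in pracinostat libraries and 3.33, 1.56 and 3.00 in DMSO libraries, with at least 1 summit in all 96 in DMSO libraries 1 and 3 and in 84 in the second. The 58 regions held 2.26, 2.38, 2.14 and 2.21 summits with pracinostat and 3.67, 1.12 and 3.43 with DMSO. Over all 6460 regions the mean number of summits was 3.95 with pracinostat and 3.04 with DMSO, and more summits were counted with pracinostat in 5531 regions. Against DMSO libraries 1 and 3 alone the mean was 3.76, and more were counted with pracinostat in 3399 regions, fewer in 2348 and as many in 713.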

How the data were processed

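Each of the 14 libraries (4 pracinostat and 3 DMSO with H3K27ac antibody, the same with IgG) had 1 deposited list of peak summits, with a −log10 score per summit in the deposited lists, which do not tell p-values from q-values. The tools named in the submitters' processing notes are HOMER, DESeq2, Bowtie2 and MACS2 2.2.9.1, without roles, and the build is mm10. Peaks had been called per library. No source used here states the calling threshold, the use of IgG or the splitting option.

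Scores depend on depth and are not comparable across lists; they were used for ranking within each list alone. Summits sharing a name before a final letter were taken as 1 peak. Summits were assigned to a region with 250 bp on either side. Gene positions and promoters came from RefSeq GRCm38.p6. Of 305 list entries in 16 lists 302 were in the gene table. Ranks were compared with limma 3.58.1 (trended, robust) in R 4.3.3 with statmod 1.5.0, for places with a summit in at least 3 libraries, with Benjamini-Hochberg adjustment over all of them, after a test on simulated data. Single values were compared with exact permutation in Python 3.11.15 with scipy 1.17.1. Named regions were those past an adjusted p of 0.05 or the 5 per direction with the smallest p, the 10 with the most summits, those split in all 7 lists and the 2 with the most summits in each gene list. The regions, lists and tests were chosen with earlier results of these data known. The groups share replicate numbers, and the labels call these biological replicates without stating a pairing. The correlation of deviations between libraries of the same number was −0.01, −0.01 and −0.02. These values cannot show whether libraries of the same number were prepared together.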

Additional observations from a re-analysis of the deposited data

Results flagged for a closer look

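Among 14 sets of 4 pracinostat values, 4 had a highest or lowest library whose gap to the nearest other passed Dixon's 95% limit for 4 samples, which chance passes in about 1 of 20 sets. In the median distance between summits, 1 pracinostat library stood apart at 299 bp, with the nearest other at 294 bp. At the Cdk6 region the lowest pracinostat percentile was 96.5 and the next 99.8. At the Parvb region the lowest was 95.7 and the next 98.7. At the region near Shcbp1l the lowest was 99.998 and the other 3 were tied at 99.9996, the highest place in their lists, so that any lower value is set apart. The cause was not tested in these 4 sets.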

How the results depend on the processing

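The treatment differences in split peaks, spacing and summits per split peak kept their direction in every alternative run. Neither the share nor the spacing passed in the alternatives run, except the spacing among the 10000 highest-scoring peaks per library, 23.9 bp (exact permutation p = 0.0286), which was 9 bp without the second DMSO library (exact p = 0.0667, the smallest allowed). Leaving out 1 library gave 0.443 to 1.59 percentage points of split peaks, 8 to 33.8 bp and 0.0325 to 0.458 summits. A block by replicate number was also run, although no label states a pairing. The differences were then 1.22 points and 23.5 bp (exact sign-flip permutation p = 0.250 each, the smallest allowed) and 0.371 summits, and limma called 1 region. The excess of split peaks over IgG was 1.64 to 2.13 points with 1 H3K27ac library left out.

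The gene-end difference was 22.98 to 32.5 points with 1 library left out (p = 0.0625 unless it was the second DMSO library), and 24.1 points with a window of 2500 bp (exact p = 0.0625). Against peaks with 2 summits it turned to −4.76, and was 6.74 without the second DMSO library, where that library has 1 split peak. The IgG difference was 0.465 to 1.01 points with 1 library left out and 0.646 within 10 bins of the score (exact p = 0.0313, 6 libraries). Against peaks with 2 summits it was −0.302, and 0.441 without the second DMSO library (exact p = 0.0313).

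The number of regions was 4302 when 3 lists were asked for, 1 for all 7, 14084 for peaks with at least 2 summits and 2924 for at least 4. limma called 0 to 4 regions with 1 library left out. It called 3 with a summit in at least 1 library, 0 with a summit in all 7 (176 higher and 100 lower at an unadjusted p under 0.05), 3 with a margin of 100 bp, and 0 with scores of at least 5 (323 higher and 61 lower unadjusted). Of the named regions' values under the alternatives, 4 lost the call, 9 gained it and 135 kept their side, and 0 turned direction. The unstated reads per library limit what these lists can show.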
